A study of Mus musculus with 24 samples.

Results

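The 1710 regions of H3K9ac on mouse chromosome 8 in day 5 embryoid bodies are described here. They are the chromosome 8 part of 26034 regions, made by merging all peaks of 8 deposited peak lists that overlapped by at least 1 bp. Chromosome 8 thus held 6.57% of all regions, and it held 4.77% of the protein-coding genes, 1043 of 21887. The regions were chosen by the positions of called peaks in these libraries, so how many lists hold a region is given as a description. The background was the 21109 regions of the 17 autosomes other than 8 and 11.

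The cells were differentiated from mouse embryonic stem (ES) cells of strain C57BL/6, per the labels. The null group (Gcn5-/-) consisted of clones 6_C4 and 4_C2, and the group with both Gcn5 alleles floxed (Gcn5fx/fx, written fx/fx here) of clones 6_1 and 4_1. Isolate pair 6 is made up of 6_C4 and 6_1, and isolate pair 4 of 4_C2 and 4_1. Each clone gave 2 replicate H3K9ac libraries; 16 further samples (total H3, input DNA) were not used. Each clone is a single isolate, so a difference between pairs or within a pair is a difference between clones, and the p-values measure only the spread between these libraries. The labels do not say how the null clones were made. The study's question was how loss of Gcn5 alters the distribution of H3K9ac at an early stage of differentiation.

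H3K9ac, histone H3 acetylated at lysine 9, marks promoters of active genes and many active enhancers, and at strongly transcribed genes it often spreads from the promoter into the gene body. Gcn5, the product of Kat2a, is the catalytic subunit of the SAGA and ATAC complexes and one of the enzymes that acetylate this residue. Chromosome 8 carries the naive pluripotency genes Klf2 and Zfp42, the E-cadherin gene Cdh1, the receptor gene Fgfr1 and many housekeeping genes, and cultured mouse ES cells are known to gain a copy of it at times. Chromosome copy number was not measured in the files used here, and its part in any result below was not tested.

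The lists held 12041 to 20809 peaks, with 17849 to 20809 in pair 6 libraries and 12041 to 15315 in pair 4 libraries. Read depth is unknown, so no counting intervals can be given, and the effect of depth on list length was not tested. Markers fitted the label in part. Each of 12 embryoid body lineage markers had a peak at a gene end in at least 1 list, although only Fgf5 had one in all 8, and Gata4 and Pax6 had one in 1 list each. Of 7 fibroblast feeder markers, 5 had a peak in at least 1 list and none in all 8, while Col3a1 and Dcn had none. The most frequent of them, Twist2, was found in 4 pair 6 libraries and 2 pair 4 libraries. Kat2a had a peak in all 8 lists, which does not check the deletion because the deleted part is not given. In these bulk samples, fewer acetylated cells and less acetylation per cell cannot be told apart.

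5 promoters of chromosome 8 show the range of patterns in the lists. They are RefSeq sequences of 300 bases around the annotated start, on build GRCm38.p6 (mm10 coordinates). CG dinucleotides, the sites of DNA methylation in mammals, are in capitals. Trim67, which encodes a ubiquitin ligase of neurons, had a peak over its promoter (chr8:124792769-124793068, plus strand) in all 4 libraries of pair 6 and none of pair 4. Zfp42, the naive pluripotency gene also known as Rex1, had one (chr8:43306960-43307259, minus strand) in all of pair 6, neither 4_C2 library and 1 of 2 4_1 libraries. Hand2, a transcription factor gene of heart and limb mesoderm, had one (chr8:57320733-57321032, plus strand) in every library except both of 4_C2. Fbxo31, a subunit of ubiquitin ligases (chr8:121578757-121579056, minus strand), and Klf2 (chr8:72318812-72319111, plus strand) had one in all 8.
Trim67: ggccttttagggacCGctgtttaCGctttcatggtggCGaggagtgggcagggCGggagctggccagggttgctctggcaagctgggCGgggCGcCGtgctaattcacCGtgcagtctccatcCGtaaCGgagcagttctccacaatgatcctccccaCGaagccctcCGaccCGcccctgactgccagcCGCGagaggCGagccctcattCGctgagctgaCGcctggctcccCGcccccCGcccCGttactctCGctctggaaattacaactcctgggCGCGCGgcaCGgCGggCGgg
Zfp42: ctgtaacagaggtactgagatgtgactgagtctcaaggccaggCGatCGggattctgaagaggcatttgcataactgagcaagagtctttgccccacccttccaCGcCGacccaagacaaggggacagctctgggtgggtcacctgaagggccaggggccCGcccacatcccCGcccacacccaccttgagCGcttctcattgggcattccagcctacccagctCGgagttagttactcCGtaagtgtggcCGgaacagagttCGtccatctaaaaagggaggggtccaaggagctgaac
Hand2: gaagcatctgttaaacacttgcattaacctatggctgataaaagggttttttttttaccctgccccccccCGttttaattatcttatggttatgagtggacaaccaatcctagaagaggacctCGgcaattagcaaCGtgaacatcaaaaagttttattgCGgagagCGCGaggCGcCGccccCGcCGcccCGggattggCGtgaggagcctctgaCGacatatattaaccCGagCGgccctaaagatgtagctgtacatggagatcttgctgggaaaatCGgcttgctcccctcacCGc
Fbxo31: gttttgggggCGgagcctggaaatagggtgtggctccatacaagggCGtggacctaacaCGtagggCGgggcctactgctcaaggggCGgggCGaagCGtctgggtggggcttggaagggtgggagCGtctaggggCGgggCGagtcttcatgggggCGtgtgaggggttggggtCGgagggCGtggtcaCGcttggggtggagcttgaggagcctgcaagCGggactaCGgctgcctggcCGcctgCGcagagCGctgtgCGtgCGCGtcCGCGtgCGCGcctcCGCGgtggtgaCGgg
Klf2: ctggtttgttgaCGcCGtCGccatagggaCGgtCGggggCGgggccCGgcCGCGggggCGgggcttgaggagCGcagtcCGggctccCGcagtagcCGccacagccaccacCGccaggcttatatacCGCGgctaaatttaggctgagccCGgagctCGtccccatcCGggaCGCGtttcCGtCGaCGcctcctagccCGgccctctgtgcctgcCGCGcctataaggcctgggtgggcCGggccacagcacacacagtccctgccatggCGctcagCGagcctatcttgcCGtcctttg

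CG dinucleotides numbered 28 in the Trim67 promoter, 11 in Zfp42, 17 in Hand2, 29 in Fbxo31 and 32 in Klf2. The promoter table held 1442 promoters of chromosome 8, covering 725 of its 1043 protein-coding genes. The 513 promoters with a peak in all 8 lists had a median of 25 CG dinucleotides, the 193 with a peak in 1 to 7 lists had 14, and the 736 with none had 4, against 7 over all 32851 promoters of the table. The motif GGGCGG, searched on both strands, was found in 72.9% of the first set, 51.8% of the second and 7.88% of the third, against 35.7% of all promoters. CCAAT, also on both strands, was found in 39.2%, 33.7% and 42.0%, against 37.4% of all. TATAAA was found in 5.07%, 9.84% and 18.8%, against 13.6% of all. All 5 printed promoters hold GGGCGG, which overlaps the CG dinucleotides counted, and Zfp42 and Hand2 also hold CCAAT.

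Regions shared by all lists lay mostly at genes' ends. A gene end here is a window of 1000 bp either side of either end of a protein-coding gene, since the gene table gives no strand. Gene ends held 751 of the 1710 regions, gene interiors beyond those windows held 714, and 245 were outside genes. Among the 560 regions present in all 8 lists, these numbers were 486, 52 and 22. Among the 522 present in 1 list they were 66, 356 and 100. The median covered width was 1240 bp for regions in 1 list, between 1352 and 1780 bp for those in 2 to 7 lists, and 2568 bp for those in all 8. On chromosome 8, 32.7% of regions were in all 8 lists and 30.5% in 1 list, against 40.2% and 24.4% on the background autosomes.

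The broadest region (chr8:70764352-70782320) spans Pik3r2, a regulatory subunit of PI3 kinase, and the neighbouring ends of Ifi30 and Mast3. It was covered over 16110 and 15573 bp in 6_C4, 17630 and 16964 bp in 6_1, 11278 and 5976 bp in 4_C2, and 13001 and 11144 bp in 4_1. The next were at Sall1, a zinc finger gene of early development (6274 to 12475 bp), and at the shared ends of the centromere gene Cenpt, Thap11 (Ronin) and Nutf2 (5649 to 11532 bp). In each of these 3 regions all pair 6 libraries were above all pair 4 libraries, but none passed the width test between pairs described below (limma adjusted p of 0.0749, 0.0611 and 0.0927). Following them in width were Irf2bp2, not called (limma adjusted p = 0.252), and a region inside a gene (chr8:111725667-111737834). The latter was called wider in pair 6 (log2 difference 0.74 ± 0.17, SE, limma adjusted p = 0.0348).

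The share of peaks that lay on chromosome 8 was higher in pair 6 than in pair 4. For every 100 peaks on the background autosomes, chromosome 8 had 7.83 and 7.78 peaks in 6_C4, 7.70 and 7.35 in 6_1, 6.37 and 6.69 in 4_C2, and 7.03 and 6.86 in 4_1. All 4 libraries of pair 6 were above all 4 of pair 4, with means of 7.66 ± 0.22 and 6.74 ± 0.28 (SD, n = 4 each). The 2 genotypes overlapped, with a mean of 7.17 ± 0.74 for the null clones and 7.23 ± 0.37 for the fx/fx clones (SD, n = 4 each). In numbers, chromosome 8 held 1229 and 1145 peaks in 6_C4, 1329 and 1127 in 6_1, 768 and 659 in 4_C2, and 882 and 746 in 4_1.

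The log2 ratio of each autosome's peaks to those of the background autosomes was fitted with limma over the 19 autosomes. The chromosome was singled out with earlier results of these data known, so the p-values place it among the autosomes and are not independent evidence. Pair 6 exceeded pair 4 by 0.19 ± 0.02 on the log2 scale (SE, limma adjusted p = 0.000206), the highest of the 19 values. Autosomes past the threshold in this contrast made up 42.1% of the 19, and chromosome 11 was the lowest, at -0.34. Both genotypes showed the pair difference, at 0.26 ± 0.03 for 6_C4 minus 4_C2 (limma adjusted p = 0.000247) and 0.12 ± 0.03 for 6_1 minus 4_1 (limma adjusted p = 0.0290). Null minus fx/fx was -0.02 ± 0.02 (limma adjusted p = 0.703), with -0.09 ± 0.03 for 4_C2 minus 4_1 (limma adjusted p = 0.0826) and 0.05 ± 0.03 for 6_C4 minus 6_1 (limma adjusted p = 0.544). With base pairs covered in place of peaks, null minus fx/fx was -0.09 ± 0.02 (limma adjusted p = 0.00804), the lowest of the 19 autosomes, and 4_C2 minus 4_1 was -0.16 ± 0.03 (limma adjusted p = 0.00202), where 15.8% and 21.1% of autosomes were called. With every list cut to its 12041 widest peaks, the pair difference was 0.32 ± 0.02 (limma adjusted p = 5.92e-05), where 9 of the 19 autosomes were called. This cut chooses peaks by width, so a difference in width also enters that ratio.

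Peaks were then split into those at gene ends and those away from them; the pairs were further apart away from gene ends. Inside genes, chromosome 8 had 10.3 and 10.5 peaks in 6_C4 for every 100 such peaks on the background autosomes, 9.74 and 9.14 in 6_1, 6.56 and 6.67 in 4_C2, and 8.49 and 7.85 in 4_1. The pairs did not overlap, and both libraries of 4_C2 were below both of 4_1. At gene ends the ratio lay between 6.77 and 6.89 in pair 6 and between 6.52 and 6.76 in pair 4, again without overlap but 0.14 apart in the mean, against 2.55 inside genes. Both differences had the smallest p that 70 splits allow (two-sided exact permutation p = 0.0286, Benjamini-Hochberg adjusted over 9 measures 0.0367). For peaks away from gene ends the pair difference was 0.40 ± 0.04 on the log2 scale (limma adjusted p = 1.72e-05), where 36.8% of autosomes were called. At gene ends it was 0.03 ± 0.01 (limma adjusted p = 0.0718). Away from gene ends, 4_C2 minus 4_1 was -0.28 ± 0.06 (limma adjusted p = 0.00340, 26.3% of autosomes called), with chromosome 1 lower still, at -0.31. There, 6_C4 minus 6_1 was 0.14 ± 0.06 (limma adjusted p = 0.311). The 2 differences within pairs, each between single clones, differed by 0.42 ± 0.08 (limma adjusted p = 0.00553, 15.8% of autosomes called). These splits by place were chosen after the data were seen.

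**Figure D1:**
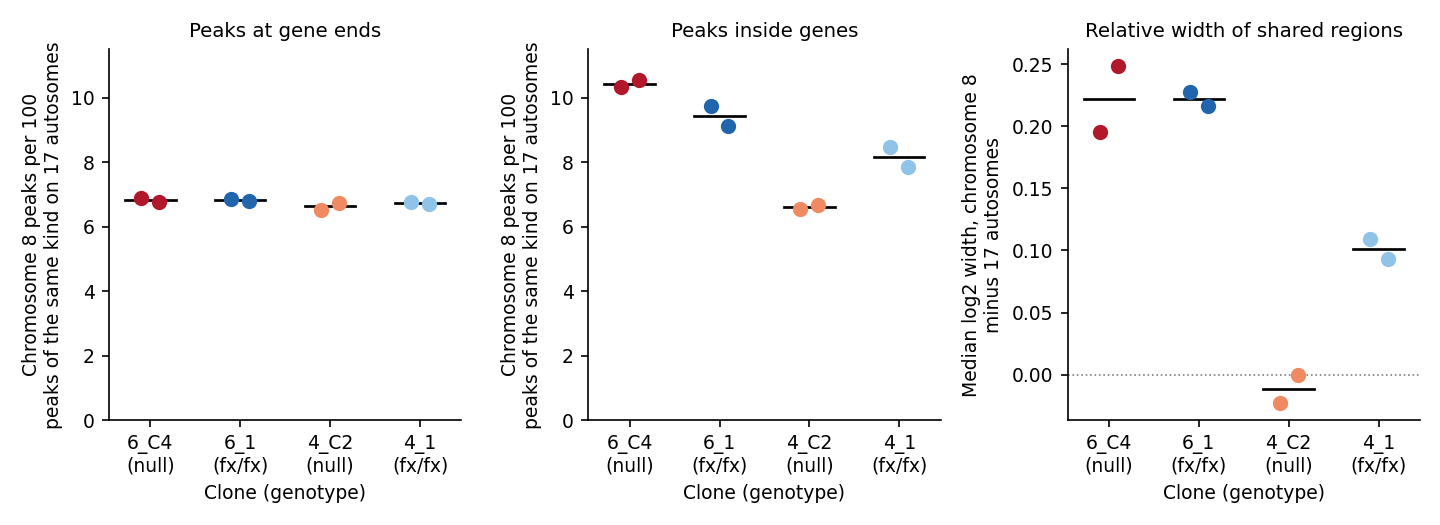
Chromosome 8 peaks per 100 peaks of the same kind on 17 background autosomes, at gene ends (left) and inside genes (middle), and the median log2 width of shared chromosome 8 regions minus that of the background autosomes (right). Points are libraries, 2 for each clone, and lines are clone means. Gene-end values stay between 6.52 and 6.89, while values inside genes run from 6.56 in 4_C2 to 10.5 in 6_C4, and 4_C2 has the lowest relative width.

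Values are given for the genes with the most inside regions, which were chosen after their values were seen. Merged regions come largely from the pair 6 lists, which also hold more peaks inside genes on the background autosomes (3537 to 4691, against 1455 to 2251 in pair 4), so nothing is read from their order. Gse1, a gene of 353 kb, held 28 such regions, of which 14 and 13 were present in 6_C4, 20 and 15 in 6_1, 3 and 2 in 4_C2, and 7 and 3 in 4_1. Rbpms, which encodes an RNA-binding protein, held 16, with 9 and 11 in 6_C4, 9 and 10 in 6_1, 2 and 1 in 4_C2, and 3 and 1 in 4_1. Zfhx3, a homeodomain factor gene, held 13, with 6 and 4 in 6_C4, 9 and 9 in 6_1, 3 and 2 in 4_C2, and 4 and 2 in 4_1. In Gse1 and Rbpms every pair 6 library exceeded every pair 4 library, while in Zfhx3 replicate 2 of 6_C4 equalled replicate 1 of 4_1. Cacna1a, a calcium channel gene with 13 inside regions, overlapped between pairs, with 5 to 11 in pair 6 libraries and 1 to 6 in pair 4 libraries.

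For genes with a marked end, the ratio to the background overlapped between pairs. Of the 1043 protein-coding genes of chromosome 8, 68.0% and 67.0% had a peak at an end in 6_C4, 70.3% and 68.5% in 6_1, 62.2% and 56.5% in 4_C2, and 66.3% and 61.4% in 4_1. Pair 6 was above pair 4 without overlap, but so were the background autosomes, at 57.0% to 59.7% in pair 6 and 47.9% to 56.1% in pair 4. For every 100 marked background genes, chromosome 8 had 6.79 to 6.81 in pair 6 and 6.65 to 6.84 in pair 4. The log2 difference between pairs was 0.00 ± 0.01 (0.0035, limma adjusted p = 0.942).

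Chromosome 8 regions were also wider in pair 6 relative to the background. For the regions present in all lists, the median log2 width on chromosome 8 minus that on the background autosomes was 0.196 and 0.248 in 6_C4, 0.228 and 0.216 in 6_1, -0.023 and 0.00 in 4_C2, and 0.109 and 0.093 in 4_1. Pair 6 and pair 4 did not overlap, the 2 clones of pair 6 did, and both libraries of 4_C2 were below both of 4_1. The difference between pairs was 0.18 (0.222 ± 0.022 in pair 6, 0.045 ± 0.066 in pair 4, SD, n = 4 each, two-sided exact permutation p = 0.0286). That is the smallest p that the 70 splits of 8 libraries allow. In base pairs, the median shared region of chromosome 8 was 2740 to 3046 bp in pair 6 and 1761 to 2385 bp in pair 4, against 2340 to 2622 bp and 1761 to 2211 bp on the background autosomes.

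Between genotypes the relative width was 0.105 ± 0.137 for the null clones and 0.161 ± 0.070 for the fx/fx clones (SD, n = 4 each, two-sided exact permutation p = 0.514). Within pair 4, 4_C2 minus 4_1 was -0.11 ± 0.02 (SE, limma over the 19 autosomes, adjusted p = 4.55e-07), and 15.8% of autosomes were called. Chromosome 1 was lower still, at -0.12. Within pair 6, 6_C4 minus 6_1 was 0.00 ± 0.02 (limma adjusted p = 0.995). The 2 differences within pairs differed by 0.11 ± 0.03 (limma adjusted p = 0.000419). The limma fit pools the spread over autosomes, and it also called null minus fx/fx, at -0.06 (limma adjusted p = 0.000647), which the exact test did not.

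**Figure D2:**
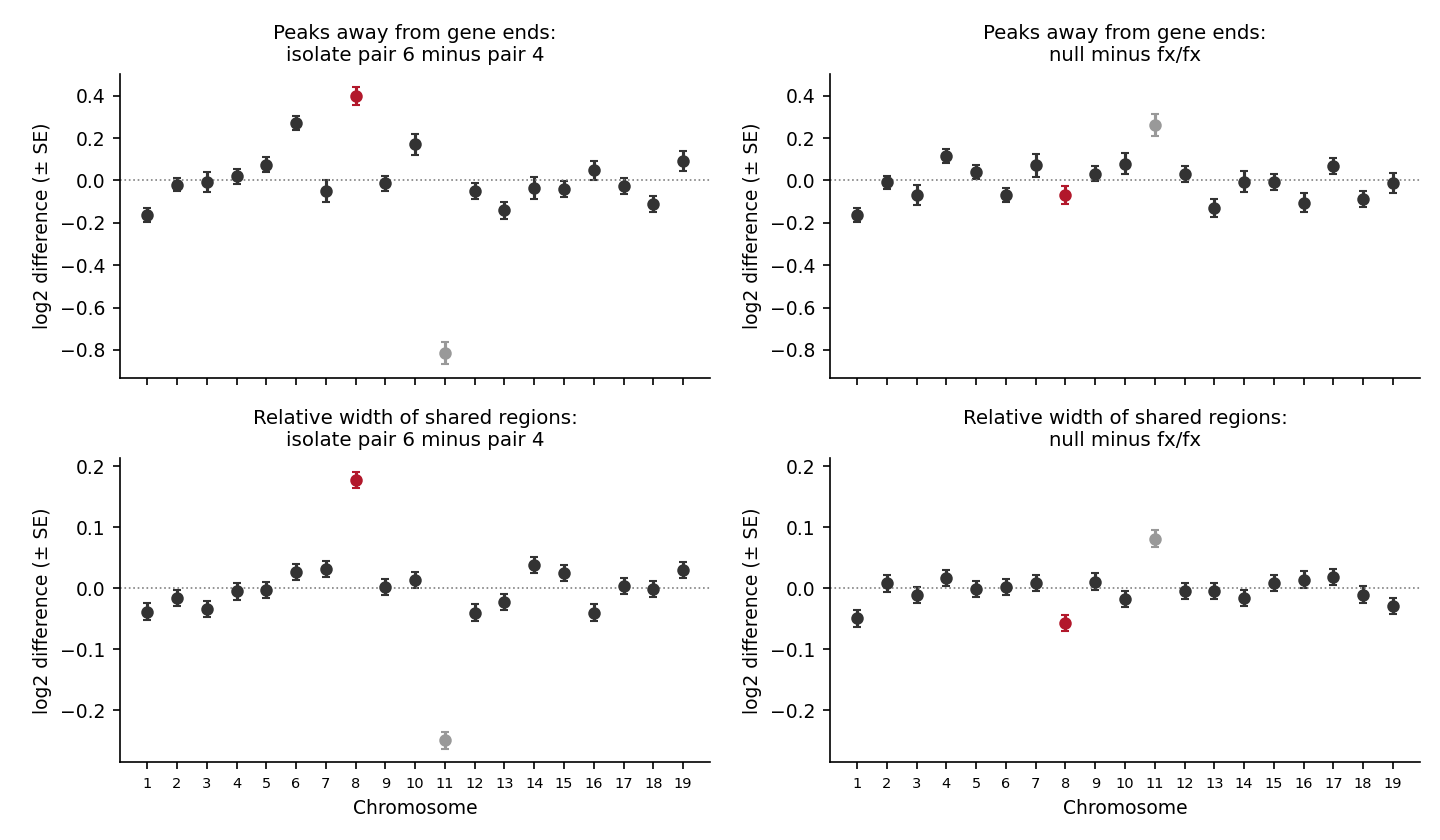
Log2 difference (± SE, limma) in the peaks away from gene ends (top) and in the relative width of shared regions (bottom) for each of 19 autosomes, for isolate pair 6 minus pair 4 (left) and null minus fx/fx (right). Chromosome 8 is red and chromosome 11, left out of the background, is light grey. Chromosome 8 is highest in both pair panels, at 0.40 and 0.18, and lies at -0.07 and -0.06 between genotypes.

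The difference was uneven along the chromosome. In 10 Mb bins, 7 of 13 chromosome 8 bins had more peaks in pair 6 and none had fewer (limma adjusted over 243 autosomal bins), against 14% and 28.8% of all bins. Bin 4 (30 to 40 Mb) had the largest difference, 0.47 ± 0.05 on the log2 scale (SE, limma adjusted p = 3.68e-05), with 4.31 peaks in 6_C4, 4.02 in 6_1, 2.77 in 4_C2 and 3.15 in 4_1 for every 1000 background peaks (clone means). Bin 13, the last (120 to 130 Mb), followed with 0.40 ± 0.06 (limma adjusted p = 0.000177), with 11.3 in 6_C4, 11.3 in 6_1, 7.96 in 4_C2 and 9.19 in 4_1. Bins 9 to 12 and bin 2 were also called, at 0.13 to 0.31. Bins 5 to 8 (40 to 80 Mb) lay between -0.05 and 0.03. For 6_C4 minus 4_C2, bins 2, 4 and 10 to 13 had more peaks, where 8.64% of all bins had more and 16.5% fewer. For 6_1 minus 4_1, bins 4 and 13 had more and bin 6 fewer (-0.25 ± 0.08, limma adjusted p = 0.0338), where 5.76% of all bins had more and 15.6% fewer. None of the 13 bins was called by limma between genotypes, where 0% of all bins had more peaks and 0.412% fewer, nor within either pair, where 0% of all bins were called. At an unadjusted p under 0.05 there was 1 bin between genotypes (bin 10, -0.15 ± 0.06), where 11.1% of all bins passed. There were 3 for 4_C2 minus 4_1 (bins 4, 6 and 13, all lower in 4_C2), where 15.2% of all bins passed, and 1 for 6_C4 minus 6_1 (bin 1, higher in 6_C4), where 4.94% did. In 5 Mb bins, 10 of 22 chromosome 8 bins had more peaks in pair 6 and 2 had fewer (limma adjusted over 401 bins), where 12% of all bins had more and 21.7% fewer.

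The shared regions of bin 8 (70 to 80 Mb), where the peak ratio differed by only 0.03, had the largest median width difference between pairs, 0.24, with 15 of 75 regions called wider by the test described next. Bin 9 had 16 of 73 called wider, where 14.3% of the chromosome's regions and 4.79% of all regions were. Bin 5 had none of 32 called wider and 1 narrower, with a median of 0.02, and bin 6 had none of 7 called, with a median of -0.05.

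**Figure D3:**
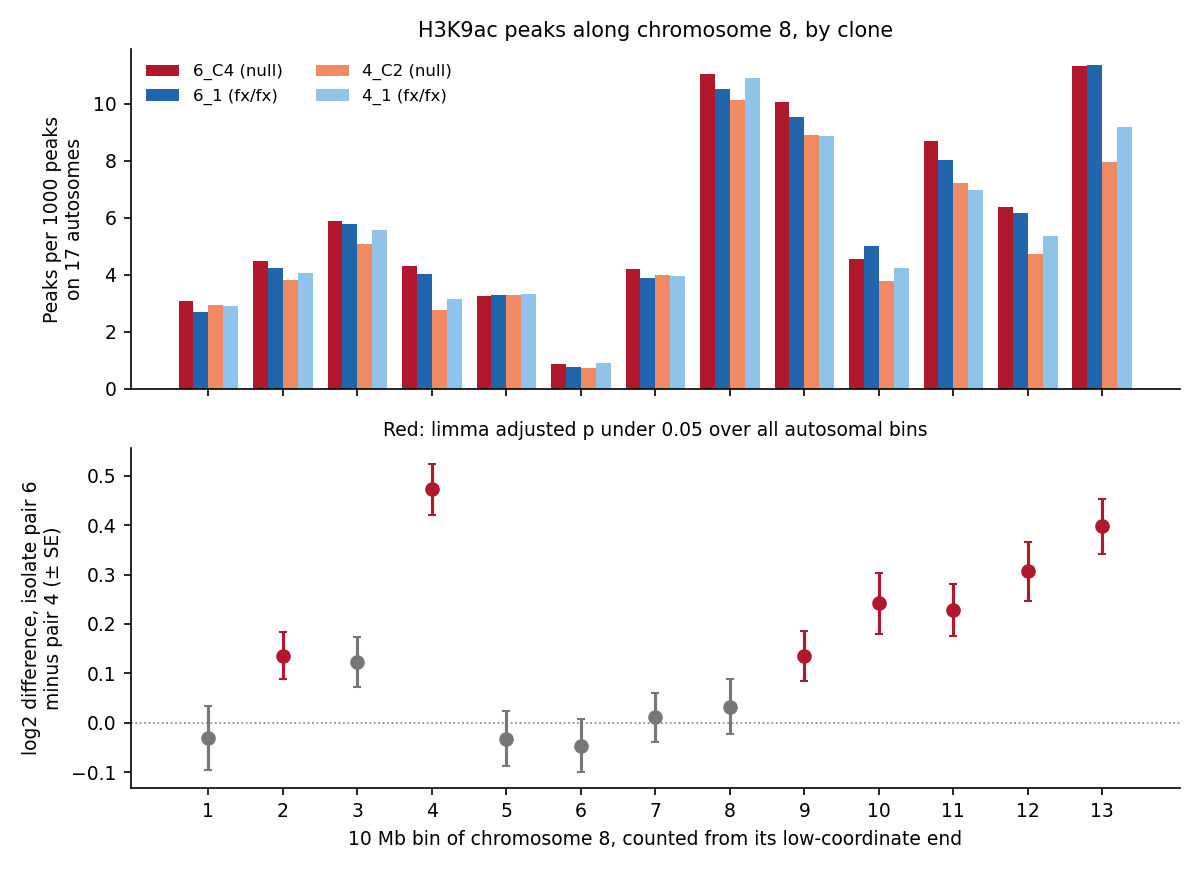
Peaks in the 13 bins of 10 Mb along chromosome 8, as clone means for every 1000 peaks on the background autosomes (top), and the log2 difference of isolate pair 6 minus pair 4 with its SE (bottom). Bins 4 and 13 differ most, at 0.47 and 0.40, and bins 5 to 8 lie near 0.

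Widths of single regions were then compared. The measure was log2 of the base pairs covered in a library, less that library's median over the 10171 regions present in all lists. Centring removed a shift of 0.26 between pairs and -0.14 between null and fx/fx. Of the 560 chromosome 8 regions, 80 (14.3%) were wider and 2 narrower in pair 6 (limma, adjusted over 10171 regions). Over all regions 4.79% were called wider and 2.34% narrower, and on the background autosomes 4.66% and 1.11%. The median change was 0.15 on chromosome 8, with 416 of 560 regions (74.3%) above 0, and -0.01 on the background autosomes, with 48.1% above 0. The 80 consisted of 70 at gene ends, 7 inside genes and 3 outside, so the called share was close in the 3 places (14.4%, 13.5% and 13.6%). Fewer were called when either library of 6_C4, either library of 6_1 or replicate 2 of 4_1 was left out. Counts for such fits, which leave 1 library for a clone, are given only with the processing settings below. For 6_C4 minus 4_C2 alone, 31 regions were wider and none narrower, where 1.81% of all regions were wider and 0.541% narrower. For 6_1 minus 4_1 alone, 14 were wider and none narrower, where 1.07% and 0.059% of all were.

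**Figure D4:**
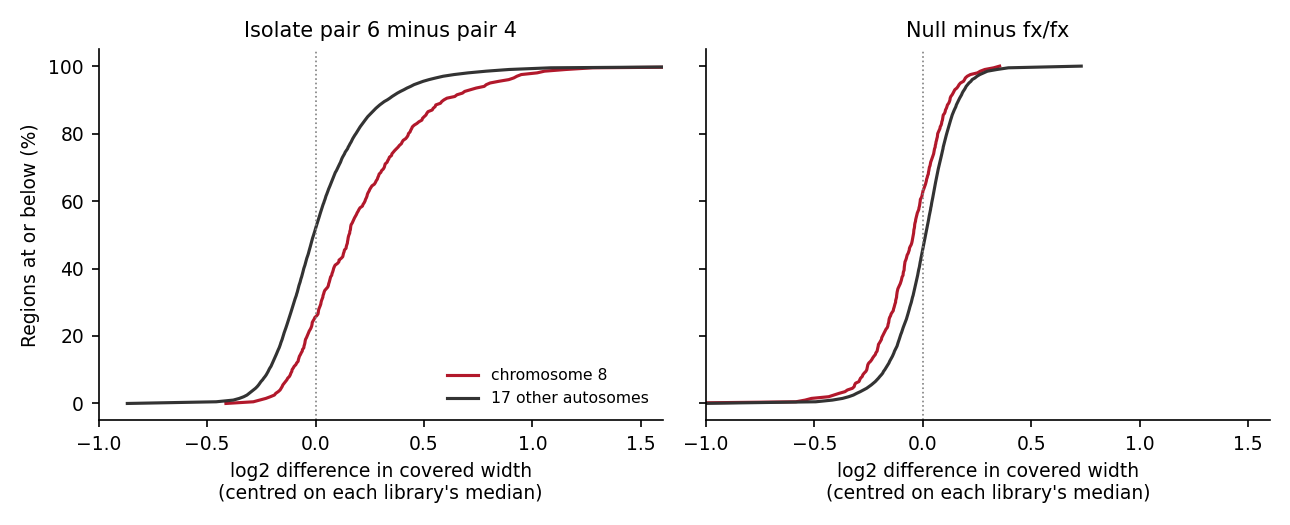
Cumulative share of regions by their log2 difference in covered width, for chromosome 8 (red, 560 regions) and the background autosomes (black, 8482 regions), between isolate pairs (left) and between genotypes (right). The chromosome 8 curve is shifted right between pairs, with a median of 0.15 against -0.01, and left between genotypes, with -0.04 against 0.01.

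Slc7a5, which encodes the large neutral amino acid transporter of growing cells, had the lowest p. Its region, at the end of the gene with the higher coordinate (chr8:121896014-121908927) was covered over 10385 and 8510 bp in 6_C4, 9238 and 9059 bp in 6_1, 1799 and 1494 bp in 4_C2, and 3957 and 4394 bp in 4_1. The pairs were far apart, and both 4_C2 libraries were below both 4_1 libraries. The log2 difference was 1.56 ± 0.10 between pairs (SE, limma adjusted p = 0.000326) and -1.20 ± 0.14 for 4_C2 minus 4_1 (limma adjusted p = 0.0273). Between genotypes it was -0.52 ± 0.10 (limma adjusted p = 0.303). An inside region of Rbpms (chr8:33910758-33924535, chosen after its values were seen) had the largest difference between pairs, 2.24 ± 0.18 (limma adjusted p = 0.000457). It was covered over 9861 and 9994 bp in 6_C4, 12192 and 13007 bp in 6_1, 1072 and 658 bp in 4_C2, and 6339 and 3361 bp in 4_1, and 4_C2 was again the lowest clone.

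These 2 were the only chromosome 8 regions called for 4_C2 minus 4_1, both narrower, where 0.0688% of all regions were called narrower and 0.00983% wider. The number called changed whichever library was left out, and most such fits called none. Counts for these fits, which leave 1 library for a clone, are likewise given only with the processing settings below. For 6_C4 minus 6_1 limma called none (6 wider and 30 narrower at an unadjusted p under 0.05, or 1.07% and 5.36%, against 1.39% and 3.06% of all regions). For null minus fx/fx it also called none, with 7 wider and 43 narrower at an unadjusted p under 0.05, or 1.25% and 7.68%, against 3.88% and 3.87% of all regions. When regions needed only 4 lists, with a pseudocount of 100 bp, 1 of 872 chromosome 8 regions was called wider and 29 narrower between genotypes (0.115% and 3.33%, against 0.358% and 2.02% of all 15383 regions). For 4_C2 minus 4_1, 1 was then wider and 32 narrower (0.115% and 3.67%, against 0.39% and 2.15% of all). With the regions in all 8 lists, the median between genotypes over chromosome 8 was -0.04 with 37.5% of regions above 0, against 0.01 and 54.4% on the background autosomes.

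The other genes named by smallest p have different roles. Nob1, an endonuclease that matures ribosomal RNA, was covered over 4822 and 4208 bp in 6_C4, 4963 and 6118 bp in 6_1, 1785 and 1528 bp in 4_C2, and 1914 and 1710 bp in 4_1 (log2 difference between pairs 1.26 ± 0.09, limma adjusted p = 0.000333). The region shared by Cox4i1, a cytochrome c oxidase subunit, and Emc8, a subunit of a membrane insertase of the endoplasmic reticulum, was covered over 9768 and 8017 bp in 6_C4, 8852 and 11091 bp in 6_1, 3401 and 3024 bp in 4_C2, and 3876 and 3658 bp in 4_1 (1.17 ± 0.10, limma adjusted p = 0.000592). At both genes the pairs did not overlap and the 2 clones of pair 4 lay close to each other. Fbxo31 (1.19 ± 0.09), the protease gene Mbtps1 (1.33 ± 0.15), the splicing factor gene Arglu1 (1.03 ± 0.12), the ubiquitin ligase receptor gene Dcaf15 (0.80 ± 0.09), the fatty acid reductase gene Tecr (0.68 ± 0.09) and Wdr59, a gene of amino acid sensing (0.64 ± 0.08), were called too, with limma adjusted p of 0.000333 to 0.00472.

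Foxc2, a forkhead factor gene of mesoderm, had the lowest p among the lineage transcription factors. It was covered over 2155 and 2333 bp in 6_C4, 2557 and 2267 bp in 6_1, 1075 and 1028 bp in 4_C2, and 1010 and 841 bp in 4_1, with no overlap between pairs (0.97 ± 0.10, limma adjusted p = 0.00150). The 2 narrower regions were at Irf2, an interferon regulatory factor gene, and Dync1li2, a dynein subunit gene. Irf2 was covered over 3189 and 3116 bp in 6_C4, 3065 and 3299 bp in 6_1, 3402 and 3162 bp in 4_C2, and 3489 and 3680 bp in 4_1. The pairs overlapped before centring, and the centred difference was -0.38 ± 0.08 (limma adjusted p = 0.0343). For Dync1li2 it was -0.41 ± 0.10 (limma adjusted p = 0.0488), with 1969 to 2823 bp in pair 6 and 1987 to 2849 bp in pair 4. Without centring no chromosome 8 region was called narrower.

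**Figure D5:**
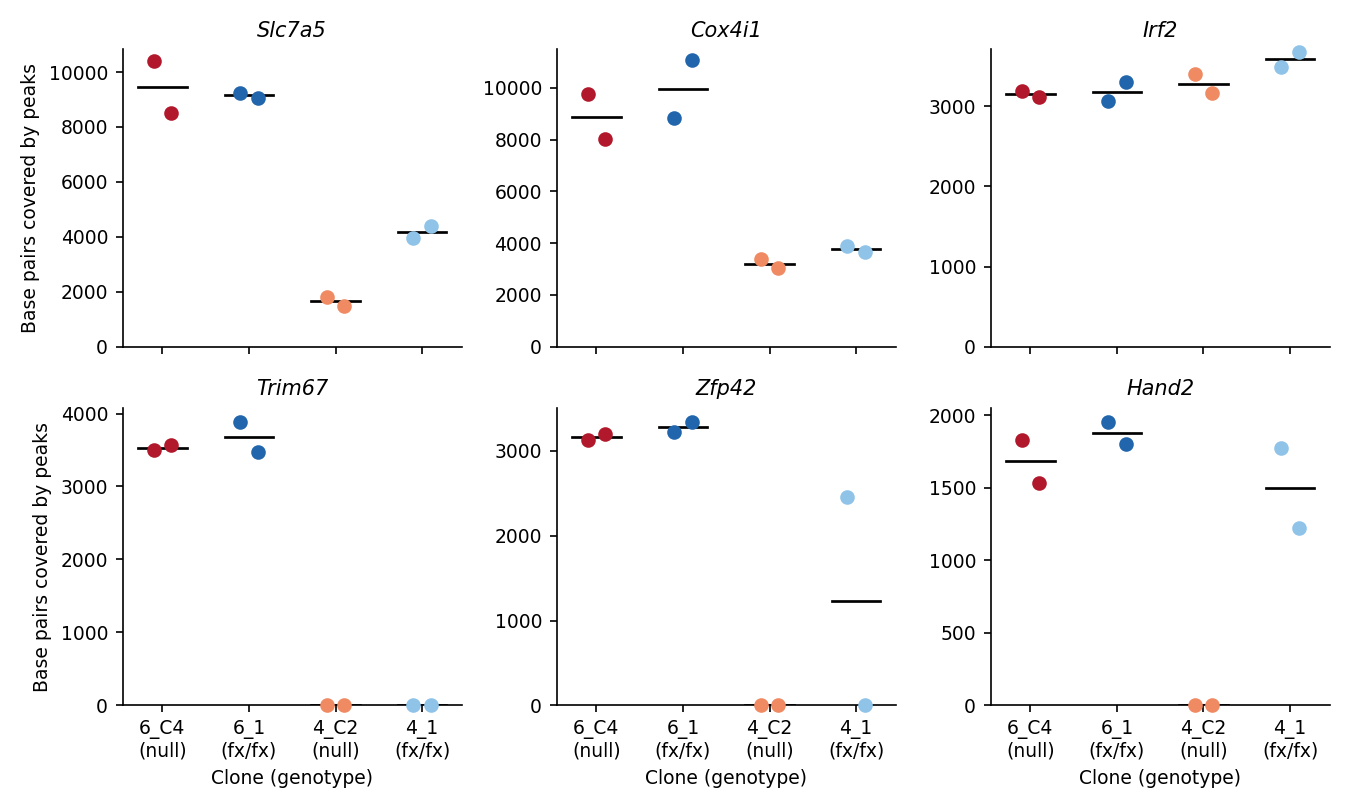
Base pairs covered by peaks at the region of 6 chromosome 8 genes in each library (points, 2 for each clone, with clone means as lines). Slc7a5 and Cox4i1 are covered over at least 8017 bp in pair 6 and at most 4394 bp in pair 4, Irf2 lies between 3065 and 3680 bp in all, and Trim67, Zfp42 and Hand2 are at 0 in both 4_C2 libraries.

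Gene lists were described by counts, with all 10171 regions at a median of -0.02 between pairs, 46.2% above 0 and 4.79% called wider. The members all lie on chromosome 8, whose 560 regions had a median of 0.15, 74.3% above 0 and 14.3% called wider, so a list near those values says nothing of its own members. All 17 ribosomal and core housekeeping genes had a peak in all 8 lists, 16 of the 17 were above 0 between pairs (median 0.37), and 7 were called wider, among them Lsm4 of the RNA-binding Lsm ring (0.94 ± 0.13, limma adjusted p = 0.00562) and the lysosomal membrane gene Lamp1 (0.89 ± 0.18, limma adjusted p = 0.0247). Of 10 replication and cell cycle genes tested, 8 were above 0 (median 0.12) and 2 were called wider, among them the licensing factor gene Cdt1 (0.58 ± 0.11, limma adjusted p = 0.0210). Chromatin factors had 11 of 16 above 0 (median 0.11) and none called. Signalling genes had 7 of 16 above 0 (median -0.04) with 2 called wider, and lineage transcription factors 7 of 12 (median 0.08) with 2 called wider. Adhesion and matrix genes had 4 of 6 above 0 (median 0.24) with 1 called wider, the basement membrane collagen gene Col4a1 (0.51 ± 0.13, limma adjusted p = 0.0498), in a region it shares with Col4a2. Tissue-restricted genes had 4 of 4 above 0 (median 0.62) with 3 called wider, immediate early genes 2 of 3 (median 0.07) with none called, and pluripotency genes 2 of 2 (median 0.47) with none called. None of these lists had a member called narrower, and none of the 560 regions was called between genotypes.

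Of the 4 pluripotency genes on the chromosome, 2 had a peak in all 8 lists. Klf2, a naive pluripotency factor gene, was covered over 4633 and 4073 bp in 6_C4, 4490 and 7395 bp in 6_1, 2635 and 1721 bp in 4_C2, and 4562 and 2811 bp in 4_1. The pairs overlapped, and neither the pair difference (0.59 ± 0.18, limma adjusted p = 0.0871) nor null minus fx/fx (-0.44 ± 0.18, limma adjusted p = 0.619) was called. Zfp42 was covered over 3129 and 3199 bp in 6_C4, 3221 and 3339 bp in 6_1, 0 and 0 bp in 4_C2, and 2451 and 0 bp in 4_1. Cdh1 had a peak in all 8 lists, with 2115 to 3605 bp in pair 6 and 1420 to 2052 bp in pair 4 (0.34 ± 0.15, limma adjusted p = 0.195). The germ cell gene Nanos3 had a peak in 1 library, replicate 1 of 6_1.

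Fgfr1, an FGF receptor gene, was not called between pairs (0.22 ± 0.09, limma adjusted p = 0.161), although the pairs did not overlap before centring. It was covered over 3453 to 4079 bp in pair 6 and 1969 to 3293 bp in pair 4, with a difference of -0.13 ± 0.09 between null and fx/fx (limma adjusted p = 0.743). An inside region of Fgfr1 (chr8:25541697-25546784, chosen after its values were seen) was present in every library except both of 4_C2. Junb, an immediate early gene downstream of growth factor signalling, differed by 0.07 ± 0.12 between pairs (limma adjusted p = 0.727) and -0.03 ± 0.12 between genotypes (limma adjusted p = 0.961). Kat6a, an acetyltransferase gene, differed by 0.07 ± 0.14 between pairs (limma adjusted p = 0.808), and Ctcf, the architectural factor gene, by 0.29 ± 0.08 (limma adjusted p = 0.0635).

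Presence was compared next, counting a region as lost when both libraries of the floxed clone and neither of the null clone had it. In pair 4, 41 of 925 regions were lost and 6 gained in 4_C2, or 4.43% and 0.649%, against 2.7% and 0.717% on the background autosomes. The 41 lost comprised 18 regions at gene ends, 14 in gene interiors and 9 outside genes. Present in all 4 pair 6 libraries were 30 of the 41, and 242 of the 373 regions lost on the background autosomes. In pair 6, 48 of 1662 regions were lost and 29 gained in 6_C4, or 2.89% and 1.74%, against 2.75% and 0.78%. Of the 29 gained, 21 lay inside genes, where 123 of the 201 chromosome 8 regions present in 2 lists also lay. Gatad2a and Gse1, chosen after their values were seen, held such gained regions. On chromosome 8 no region was lost or gained across both pairs at once, against 13 of 21109 lost and 0 gained on the background autosomes. These counts have no test, and the shares depend on the criterion. With the 12041 widest peaks of each list, 15 regions were gained in 6_C4, or 1.41% against 1.69% on the background autosomes, so the higher share on chromosome 8 was not seen there.

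Leaving out a library loosens the criterion. The regions lost in pair 4 then numbered 99 without replicate 1 of 4_C2 (11.2%, against 10.7% on the background autosomes), 53 without replicate 2 of 4_C2 (5.78%, against 3.39%), 65 of 813 without replicate 1 of 4_1 (against 638 of 12713) and 153 of 901 without replicate 2 of 4_1 (against 1466 of 13541). Those gained in pair 4 numbered 14, 46, 17 and 8 in the same order. Their shares were 1.58%, 5.02%, 2.09% and 0.888%, each below the background autosomes (2.26%, 7.74%, 2.97% and 1.02%). In pair 6, 109 were lost and 122 gained when replicate 1 of 6_C4 was left out, 79 and 169 without its replicate 2, 131 and 51 without replicate 1 of 6_1, and 249 and 43 without replicate 2 of 6_1. The shares lost were 7.16%, 5.04%, 8.97% and 15.8% in that order, against 7.20%, 4.73%, 8.16% and 13.5% on the background autosomes. The share gained in 6_C4 was 2.72% to 10.8% in these 4 cases, against 1.75% to 6.38% on the background autosomes.

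By gene, 13 of 713 chromosome 8 genes lost their end peak in 4_C2 against 4_1 (1.82%, against 1.96% on the background autosomes) and 3 gained one (0.421%, against 0.37%). These shares are near the background. Besides Hand2 (1827 and 1536 bp in 6_C4, 1953 and 1805 bp in 6_1, 0 in both 4_C2, 1773 and 1223 bp in 4_1), the 13 included Nrp1, a co-receptor for VEGF and semaphorins (2049 and 2557 bp in 6_C4, 3869 and 2443 bp in 6_1, 0 in both 4_C2, 2406 and 1037 bp in 4_1). Others were the DNA glycosylase gene Neil3, the cationic amino acid transporter gene Slc7a2, the neutral sphingomyelinase gene Smpd3, the cilia gene Hydin, Csmd1 and Misp3, each covered in all 6 remaining libraries. Gained in 4_C2 and present in no other clone were Il15, a cytokine gene (1166 and 914 bp), and Ddx60, an antiviral helicase gene (1330 and 917 bp).

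In 6_C4 against 6_1, 8 of 757 genes lost their end peak (1.06%, against 1.05% on the background autosomes) and 1 gained one (0.132%, against 0.295%). The homeobox gene Irx6 was covered over 0 bp in both 6_C4, 2106 and 2069 bp in 6_1, and 0 in all pair 4 libraries. The carbonic anhydrase gene Car5a, the phosphodiesterase gene Pde4c and the tryptophan-degrading enzyme gene Ido1 were likewise covered in both 6_1 libraries and no other. Nlrc5, the transactivator gene of MHC class I, was covered in both 6_1 libraries and replicate 2 of 4_1. The gain was Slc6a2, the noradrenaline transporter gene, which was covered in both 6_C4 libraries and neither 6_1 library, but also in replicate 2 of 4_C2 and both of 4_1.

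Between pairs, 59 regions were present in all pair 6 and no pair 4 libraries, 3.45% of 1710 against 3.03% on the background autosomes, and none the other way round. They numbered 96 without replicate 2 of 6_C4 (5.91%, against 5.36%), 102 without replicate 1 of 4_1 (6.04%, against 4.76%) and 98 when most of a region had to be covered (5.73%, against 3.81%). Without replicate 1 of 4_C2 they numbered 64, and the share was that of the background autosomes (3.77%, against 3.78%). Merging across gaps of up to 500 bp gave 52 of 1585 (3.28%, against 3.10%). With the 12041 widest peaks of each list they numbered 30 of 1128 (2.66%, against 1.45%), with 2 the other way round (0.177%, against 0.79%). The 59 lay 32 inside genes, 19 outside and 8 at gene ends. The widest were inside Tecr, Camsap3, Emc8 and Cdh1 (chosen after their values were seen), at 3788 to 4792 bp on average. Of 765 genes with an end peak, 4 were marked in all pair 6 and no pair 4 libraries (0.523%, against 1.07% on the background autosomes) and none the reverse. These were Trim67 (3498 and 3563 bp in 6_C4, 3883 and 3472 bp in 6_1, 0 in the other 4), the netrin receptor gene Unc5d (1429 and 1048 bp in 6_C4, 2127 and 1696 bp in 6_1, 0 in the other 4), Ccdc194 and Gm42048. Genes were counted by each library's own peaks, and a merged region reaching an end of Gm42048 was present in both 4_1 libraries. Maf, Foxl1 and Tubb3, genes of lineage or neuronal identity, were each marked in all 4 pair 6 libraries and, of pair 4, in replicate 1 of 4_1 only.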

How the data were processed

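The deposited files hold 1 H3K9ac peak list per library, with peak positions only (chromosome, start, end, on mm10), no heights or p-values. The authors used Bowtie 1.1.2 and MACS 1.4.2, per the submitters' processing notes; the threshold, the control library and the read depth are not stated there. A width therefore depends on depth and calling as well as on the mark. All deposited columns were used as positions.

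Peaks overlapping by at least 1 bp were merged over the 8 lists. Chromosome 8 was set against the 17 autosomes other than 8 and 11. Gene positions came from a RefSeq gene table. Libraries were compared with two-sided exact permutation tests (SciPy 1.17.1), and autosomes, 10 Mb bins with a mean of at least 10 peaks, and regions present in all 8 lists with limma 3.58.1 (R 4.3.3), a level for each of 4 clones and Benjamini-Hochberg adjustment, with a threshold of 0.05. No pseudocount was needed, as such regions have no 0. The limma step was tested on simulated data. Tables were handled with Python 3.11.15 and pandas 2.3.3.

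The chromosome, the gene lists and the tests were chosen with earlier results of these data known. Genes were named by rule: up to 10 per direction past the width threshold in a contrast by smallest p, up to 10 per direction with an end peak in all libraries of one side and none of the other by largest width, up to 4 members of each list, those at the 5 broadest regions, and always Klf2, Zfp42, Cdh1, Hand2, Fgfr1, Junb, Ctcf and Kat6a. Alternatives covered the background, the measure, list length, merging, width filters, bin size, a replicate block and leaving out each library.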

Additional observations from a re-analysis of the deposited data

Results flagged for a closer look

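Among the 4 libraries of isolate pair 4, replicate 1 of 4_C2 stood apart in 2 measures. Its 6.65 marked chromosome 8 genes per 100 marked background genes lay below the others by 0.905 of the group's range. Its 6.52 gene-end peaks per 100 lay below the others by 0.835 of the range. Of 32 groups of libraries checked, these 2 were past the 95% critical value for 4 samples, a limit that chance passes in about 1 in 20 groups. The difference in relative width between null and fx/fx clone differed between the isolate pairs by 0.11 (0.113) on the log2 scale (limma adjusted p = 0.000419). It was 0.00 for 6_C4 minus 6_1 and -0.11 for 4_C2 minus 4_1. In this contrast 15.8% of autosomes were called, and chromosome 1 was higher, at 0.15. Each is a difference between single clones, so genotype and clone cannot be told apart.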

How the results depend on the processing

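Settings are compared for the log2 peak ratio, the relative width, and the counts of regions and bins called by limma. For pair 6 minus pair 4, the peak ratio was past the threshold with all peaks, but was 0.0035 with genes in place of peaks (adjusted p = 0.942) and 0.03 (0.0302) at gene ends alone (adjusted p = 0.0718). For null minus fx/fx it was past the threshold only with base pairs covered, at -0.09 (-0.0882, adjusted p = 0.00804). For 4_C2 minus 4_1 it passed with base pairs covered at -0.16 (-0.155, adjusted p = 0.00202), with all autosomes other than 8 as background at -0.11 (-0.113, adjusted p = 0.0324) and away from gene ends at -0.28 (adjusted p = 0.00340). For 6_C4 minus 6_1, uncalled in every setting, the sign turned with base pairs covered (-0.02, -0.0211), genes (-0.0011) and the 12041 widest peaks of each list (-0.04, -0.0352). Relative width between genotypes, not called by the exact test, was called by limma over the autosomes at -0.06 (-0.0562, adjusted p = 0.000647). The causes were not tested.

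When regions needed only 4 lists (pseudocount 100 bp), 135 regions were called between pairs (133 wider and 2 narrower, 15.3% and 0.229%, against 8.68% and 1.94% of all), 30 between genotypes (1 wider) and 33 for 4_C2 minus 4_1 (1 wider). That setting changes the filter and adds a pseudocount together, and the cause was not tested. Without centring, 275 were called between pairs and 0 for 4_C2 minus 4_1. The shift of 0.26 between pairs then stays in the regions of every chromosome. The share of all regions called in that setting is not given here, so nothing about chromosome 8 is read from the 275. With 5 Mb bins, 12 were called between pairs, 10 with more peaks and 2 with fewer. With the widest 12041 peaks of each list, 25 regions were lost and 15 gained in pair 6 (2.35% and 1.41%, against 1.97% and 1.69% on the background autosomes).

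Leaving out 1 library at a time, the peak ratio stayed between 0.168 and 0.204 between pairs, between -0.035 and -7.7e-05 between genotypes, between -0.123 and -0.0529 for 4_C2 minus 4_1 (called without replicate 2 of 4_C2, adjusted p = 0.0281, where the lone 4_C2 library is assumed to vary like the other clones) and between 0.0186 and 0.0869 for 6_C4 minus 6_1. Relative width stayed between 0.157 and 0.199 between pairs and between -0.103 and -0.0076 between genotypes. Regions called numbered 40 to 85 between pairs and 0 to 8 for 4_C2 minus 4_1, and bins between pairs 5 to 8. Regions lost and gained numbered 53 to 153 and 8 to 46 in pair 4, and 79 to 249 and 43 to 169 in pair 6. The background values for lost and gained regions are given with those regions above. For the called regions and bins, the shares over all regions and bins in these fits are not given here. Each such fit also leaves 1 library for a clone. The numbers called therefore cannot set chromosome 8 apart from the other chromosomes.

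The labels link same-numbered replicates only by their number. Their deviations correlated at 0.109 for 4_C2 and 4_1 and 0.062 for 6_C4 and 6_1. Replicate 1 had the longer list in every clone, so the number did go with list length. Whether same-numbered libraries were handled together was not tested. With the replicate block, 80 regions and 6 bins were called between pairs, and 1 region for 4_C2 minus 4_1. The shares over all regions and bins in that setting are not given here. The peak ratio between pairs was then 0.19 (0.186, limma adjusted p = 0.00111). Relative width with the replicate block was 0.177 (exact permutation p = 0.0556, the smallest that 36 arrangements allow). The block changed no other call. Alternatives split by place, the shorter lists for relative width and limma for relative width were chosen after seeing the data. Read depth is unknown, so differences in list length and in depth cannot be told apart.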
